A study of Rattus norvegicus with 8 samples.

Results

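Slc9a3, Slc4a4, Car2, Car4, Atp1b1 and Fxyd2 are 6 genes that together carry sodium and bicarbonate across the cells of the proximal tubule, and their kidney transcripts were compared between rats given colistin and rats given saline. Probes were assigned to a gene where their RefSeq accession belonged to it, a choice that used no measured value, and this gave 9 of the 30367 non-control probes and 6 of the 15637 genes that received a name. All 9 probes were well above background on all 8 arrays, so no member was lost to a filter on dim probes. The saline group was 4 kidney samples from male rats aged 10 weeks, labelled day 28 after saline, and the colistin group was 4 kidney samples from male rats of the same age, labelled day 28 after colistin at 30 mg/kg. Colistin, a polymyxin antibiotic, is known to injure the tubules of the kidney. The strain, the route and the number of doses are not given in the sources used here, and the labels do not say that each sample came from a separate animal, so p-values measure only how far these samples spread, which may be partly technical. Each sample was hybridised alone to a 1-colour Agilent array.

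The proximal tubule reclaims most of the sodium and bicarbonate that the glomerulus filters. The exchanger encoded by Slc9a3 (NHE3) takes up sodium from the lumen and secretes a proton, carbonic anhydrase on the brush border (Car4) and in the cytosol (Car2) speeds the interconversion of bicarbonate and carbon dioxide, and the cotransporter encoded by Slc4a4 (NBCe1) passes bicarbonate with sodium to the blood side. The sodium pump keeps cell sodium low, with the beta subunit Atp1b1 helping the pump to assemble and reach the membrane and the gamma subunit Fxyd2 tuning its affinity for ions. None of the 6 transcripts is restricted to the proximal tubule, since the pump subunits are made along the whole nephron, Car2 also in intercalated cells and red cells, and Slc9a3 and Car4 also in the thick ascending limb.

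None of the 6 genes passed the test across all genes, although Slc9a3 and Atp1b1 were lower on all 4 colistin arrays than on any saline array. The estimated change was a log2 fold change of -1.30 ± 0.50 (SE, n = 4 per group) for Slc9a3 and -0.91 ± 0.30 for Atp1b1, followed by -0.33 ± 0.32 for Slc4a4, -0.30 ± 0.31 for Fxyd2, 0.04 ± 0.38 for Car4 and 0.42 ± 0.35 for Car2. In limma's moderated test with Benjamini-Hochberg adjustment over 12378 genes, 0 of the 6 had an adjusted p under 0.05, against 2.02% of all genes tested. At an unadjusted p under 0.05 the count was 2 of 6, against 22.7% of all genes. The groups did not overlap for 2 of the 6 genes, where 18.6% of all genes tested did not overlap and 11.7% did not overlap and were lower, and a set of 6 genes is too small to read that count as more than the background. The median log2 fold change of the 6 genes was -0.32 and that of all genes tested was -0.14.

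**Figure D1:**
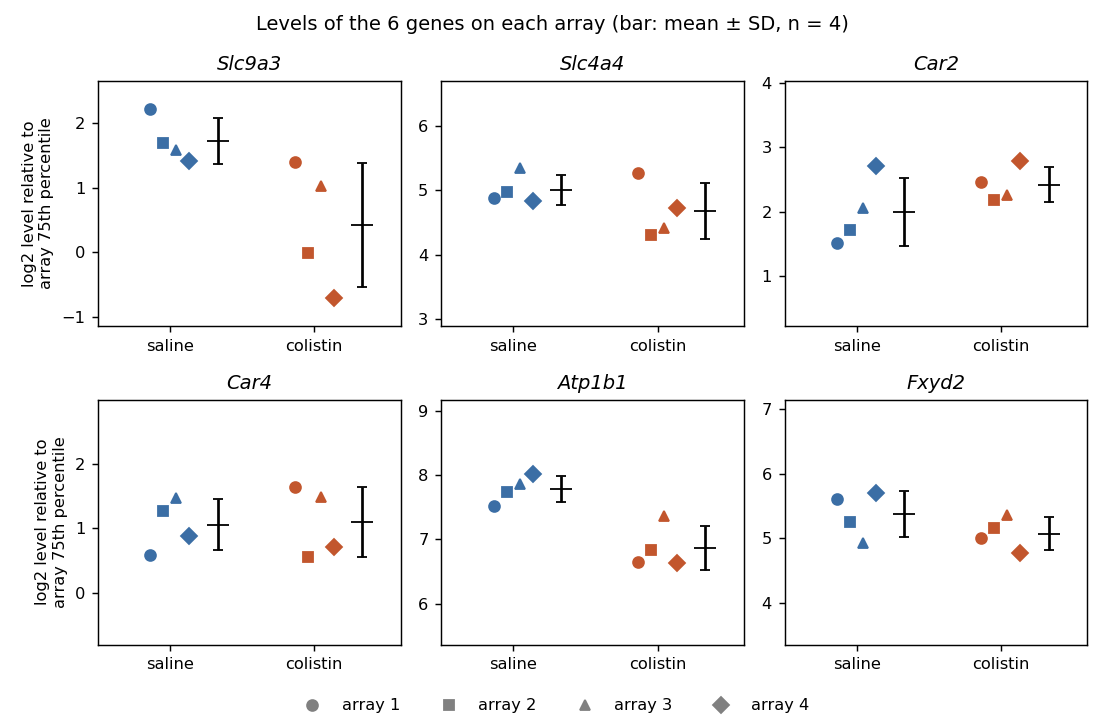
Levels of the 6 genes on each array, as log2 signal relative to the 75th percentile of each array, with the y axes of all panels spanning the same number of log2 units. Slc9a3 and Atp1b1 lie lower on every colistin array than on any saline array, while the 2 groups overlap for the other 4 genes.

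The arrays differed in brightness and agreement between groups. The 75th percentile of the processed signal, to which each array was scaled, was 156 to 197 on saline arrays and 271 to 317 on colistin arrays, and 69.3% to 75.8% of spots on saline arrays and 79.1% to 83.9% on colistin arrays were well above background. The mean correlation of an array with the others of its group, across genes, lay between 0.776 and 0.826 in the saline group and between 0.872 and 0.895 in the colistin group. The arrays lay on 3 slides, each scanned once and each holding both groups. Levels below are given as scaled signal, the linear signal with the array's 75th percentile set to 100, and the number of arrays limits their precision.

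Slc9a3, the apical entry step for sodium, had a scaled signal of 469, 323, 299 and 266 on saline arrays 1 to 4. On colistin arrays 1 to 4 it was 263, 99.3, 204 and 61.0. The highest colistin array came within a few units of the lowest saline array, and colistin arrays 2 and 4 were well below the others. On the log2 scale the SD was 0.35 between saline and 0.97 between colistin arrays. The fold change of -1.30 had a 95% interval from -2.46 to -0.15 and an adjusted p of 0.186 (limma, Benjamini-Hochberg over all genes). Within slides 1, 2 and 3 the difference was -1.83, -0.66 and -1.24.

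The other Slc9a3 probe was dimmer and less even. It read 11.7, 64.2, 94.9 and 171 on saline arrays 1 to 4, and 16.1, 14.5, 32.8 and 5.96 on colistin arrays 1 to 4. Saline array 1 lay among the colistin values, although the brighter probe was highest there. Its fold change was -2.02 ± 0.87 (adjusted p = 0.199, limma over all kept probes), of the same sign as the brighter probe. The probes therefore gave the same direction and did not rank the saline arrays alike. The mean of both probes gave -1.66 ± 0.55 (adjusted p = 0.147, limma).

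Slc4a4, the exit step for bicarbonate, was measured by a pair of probes that gave different sizes. The brighter probe read 2943, 3146, 4050 and 2855 on saline arrays 1 to 4 and 3842, 1988, 2126 and 2649 on colistin arrays 1 to 4. Colistin arrays 2 to 4 were below every saline array, and colistin array 1 lay between the 2 highest saline arrays, so the groups overlapped. The fold change was -0.33 ± 0.32 (95% interval -1.07 to 0.41, adjusted p = 0.554, limma), and within slides 1, 2 and 3 the difference was -0.54, -0.57 and -0.34. The other probe read 3699, 3833, 3834 and 3696 on saline arrays 1 to 4 and 3096, 2002, 1692 and 1664 on colistin arrays 1 to 4. There every colistin array was lower than every saline array, with a saline SD of 0.03 on the log2 scale against 0.42 for colistin. Its fold change was -0.88 ± 0.27 (95% interval -1.51 to -0.25, adjusted p = 0.121, limma over all kept probes, of which 1.48% passed). The mean of both probes gave -0.61 ± 0.30 (adjusted p = 0.267, limma), so the estimate for this gene depended on the probe.

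**Figure D2:**
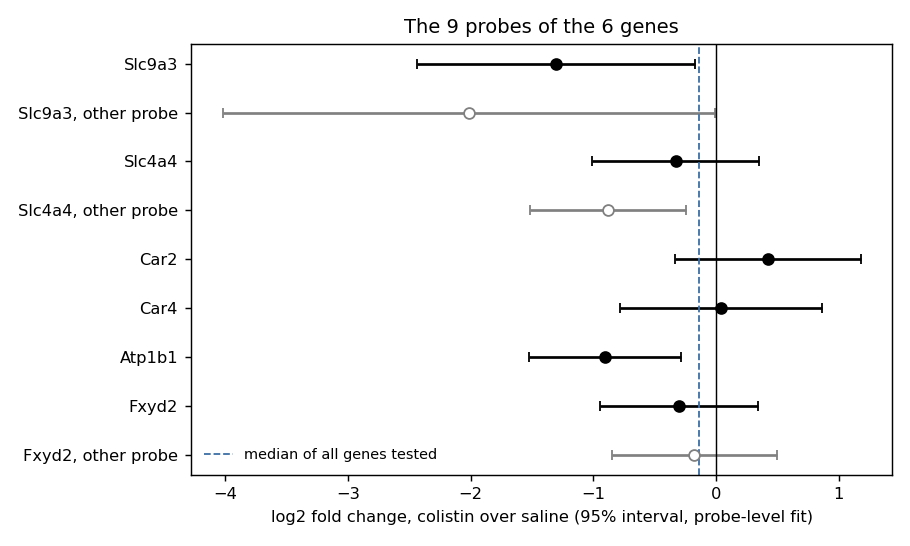
Log2 fold change of colistin over saline with its 95% interval for each of the 9 probes, filled where the probe represents its gene and open for the other probe of Slc9a3, Slc4a4 and Fxyd2. The intervals of both Slc9a3 probes, of Atp1b1 and of the open Slc4a4 probe lie below 0 before adjustment, and the dashed line is the median of all genes at -0.14.

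The carbonic anhydrase genes showed no difference past the test. Car2 had a scaled signal of 286, 328, 417 and 655 on saline arrays 1 to 4 and 552, 453, 479 and 686 on colistin arrays 1 to 4. All 4 colistin values exceeded those of saline arrays 1 to 3, while saline array 4 was above 3 of the 4. The fold change was 0.42 ± 0.35 (95% interval -0.39 to 1.23, adjusted p = 0.486, limma). The Car2 probe was printed as 10 spots on each array, and the SD between those spots was 0.04 to 0.10 on the log2 scale, while the SD between arrays was 0.53 for saline and 0.27 for colistin. The spread between samples was thus far wider than that of repeated spots on an array.

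Car4, the lipid-anchored enzyme of the cell surface, read 150, 241, 278 and 183 on saline arrays 1 to 4 and 310, 147, 281 and 163 on colistin arrays 1 to 4. The ranges lay almost on top of each other. The fold change of 0.04 ± 0.38 had a 95% interval from -0.83 to 0.91 (adjusted p = 0.957, limma), and the smallest change called in any gene was 1.48 in absolute log2 fold change. Its sign was not settled: it was -0.18, 0.22 and -0.31 within slides 1, 2 and 3, -0.12 with slide as a block, and negative when saline array 1 or 4 or colistin array 1 or 3 was left out.

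Of the sodium pump subunits, Atp1b1 was lower on every colistin array and Fxyd2 was not. Atp1b1 had a scaled signal of 18421, 21237, 23234 and 25737 on saline arrays 1 to 4 and 10058, 11464, 16502 and 9955 on colistin arrays 1 to 4. On this scale each colistin array was below each saline array, and colistin array 3 was nearest to them. The 75th percentile used for scaling was 156 to 197 on saline and 271 to 317 on colistin arrays. The separation therefore holds for levels relative to that percentile. Before scaling, the signals of Atp1b1, and those of Slc9a3, overlapped between groups. The fold change of -0.91 ± 0.30, a 1.87-fold lower level, had a 95% interval from -1.59 to -0.22 and an adjusted p of 0.149 (limma). Within slides 1, 2 and 3 the difference was -0.93, -0.36 and -1.22. The estimate was -0.94 ± 0.34 with median centring, -0.43 ± 0.31 with quantile normalization and -0.44 ± 0.22 with normexp background correction followed by quantile normalization, so its size depended on the processing.

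Fxyd2 read 4899, 3799, 3041 and 5215 on saline arrays 1 to 4 and 3191, 3560, 4122 and 2733 on colistin arrays 1 to 4. The groups overlapped, with saline array 3 lower than 3 of the 4 colistin arrays. The fold change was -0.30 ± 0.31 (95% interval -1.01 to 0.40, adjusted p = 0.572, limma), and the dimmer Fxyd2 probe gave -0.18 ± 0.29. Without saline arrays 1 and 4 the estimate was -0.02 ± 0.32. Within slides 1, 2 and 3 the difference was -0.51, 0.12 and -0.04, so its sign differed between slides.

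Differences between members within an array do not depend on how arrays are scaled by a single factor, so pairs with related roles were compared that way by a two-sided exact permutation test over the 70 splits of the 8 arrays, whose smallest possible p is 0.0286. Slc9a3 minus Slc4a4 was -3.28 ± 0.46 (log2, SD, n = 4) on saline and -4.25 ± 0.88 on colistin arrays, a change of -0.98 (exact p = 0.0857, adjusted over 4 pairs 0.114). Atp1b1 minus Fxyd2 changed by -0.61 (exact p = 0.0571, adjusted 0.114). Car4 minus Car2 changed by -0.38 (exact p = 0.371, adjusted 0.371). With normexp background correction Atp1b1 minus Fxyd2 changed by -0.18. With 1 array left out the change ranged from -1.27 to -0.58 for Slc9a3 minus Slc4a4, from -0.77 to -0.43 for Atp1b1 minus Fxyd2 and from -0.68 to -0.13 for Car4 minus Car2. None of these 3 pairs passed, and the within-array differences of each overlapped between groups.

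The RefSeq table of promoters, build GRCr8, held entries for Slc9a3, Slc4a4 and Car4 among the 6. Those of Slc9a3, the gene with the largest difference, and Car4, the gene with the smallest, are shown from 250 bases before to 50 bases after the start of the gene, 5′ to 3′. The first is chr1:30995953-30996252 on the minus strand and the next chr10:70325108-70325407 on the plus strand. Capitals mark each GC box, the letters GGGCGG searched on both strands.
Slc9a3: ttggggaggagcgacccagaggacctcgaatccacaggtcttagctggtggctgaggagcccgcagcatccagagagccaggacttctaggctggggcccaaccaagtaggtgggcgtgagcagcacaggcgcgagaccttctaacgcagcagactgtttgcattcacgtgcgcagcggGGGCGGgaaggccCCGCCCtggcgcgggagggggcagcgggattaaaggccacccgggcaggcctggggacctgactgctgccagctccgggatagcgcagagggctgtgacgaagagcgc
Car4: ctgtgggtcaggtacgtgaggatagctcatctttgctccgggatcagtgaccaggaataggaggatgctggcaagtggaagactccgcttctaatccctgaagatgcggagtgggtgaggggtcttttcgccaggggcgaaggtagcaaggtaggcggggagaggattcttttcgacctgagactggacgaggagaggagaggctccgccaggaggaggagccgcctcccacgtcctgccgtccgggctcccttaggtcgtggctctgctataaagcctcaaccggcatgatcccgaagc

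The Slc9a3 window held 2 GC boxes, 1 on each strand, and the Car4 and Slc4a4 windows held 0, while 33.1% of 33469 promoters of this length held at least 1. The letters TATAAA were found once in the Car4 window, in 0 of the other 2 windows, and in 14.2% of all promoters. The letters CAAAGT, the core of sites for the nuclear receptor HNF4, were found once in the Slc4a4 window and in 14.8% of all promoters, and the letters GTTAAT of sites for the factor HNF1 in 0 of the 3 windows and in 7.45% of all. Each was searched on both strands, and no match overlapped another in these windows. The GC content was 66.7% for Slc9a3, 78.0% for Slc4a4 and 59.7% for Car4, against a median of 51.7%. A match describes the letters only.

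Of the other genes of proximal sodium and bicarbonate transport, in 6 lists of exchangers, anion carriers, carbonic anhydrases, pump subunits, proton pump and potassium channels, and regulators, 49 of 55 were tested. Of these, 44 were above background on 3 or more arrays of both groups. Of the 44, Kcnk5 rose and Kcnj15 fell (limma, adjusted p under 0.05), beside 1.08% higher and 0.577% lower among the 10752 genes of that kind, and 1.47% and 0.549% among all genes tested. Car13 also had an adjusted p under 0.05, but it met the brightness filter through the colistin arrays alone and is not counted. The median log2 fold change of the 49 was -0.52, and 36 of the 49 were negative, beside 6786 of all 12378 genes and a median of -0.14. The groups did not overlap for 13 of the 49, beside 18.6% of all genes.

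**Figure D3:**
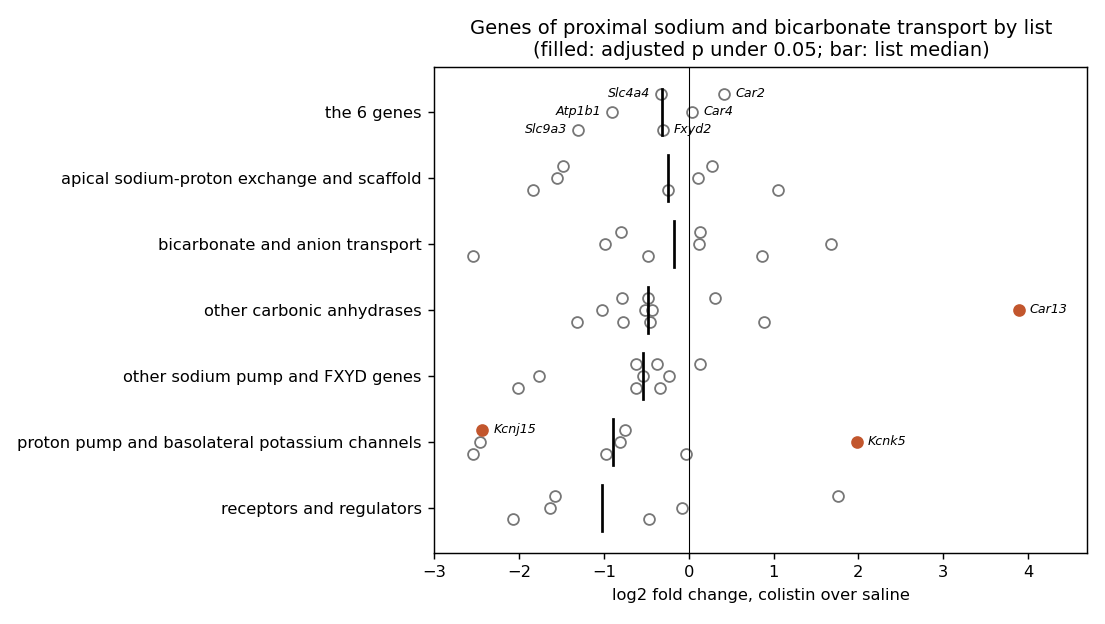
Log2 fold change of colistin over saline for the 6 genes and for the tested genes of each transport list, filled where the adjusted p was under 0.05, with a bar at each median. The 3 filled genes are Kcnj15, Kcnk5 and Car13, the last of which met the brightness filter through the colistin arrays alone, and the medians of all 7 rows lie below 0.

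The gene that fell was Kcnj15, an inwardly rectifying potassium channel subunit known from the basolateral membrane of mouse proximal tubule. Its log2 level was 0.68, 1.14, 0.84 and 1.41 on saline arrays 1 to 4 and -1.09, -1.93, -1.10 and -1.54 on colistin arrays 1 to 4. The groups stood well apart, with a log2 fold change of -2.43 ± 0.33 (adjusted p = 0.0151, limma). It no longer passed without colistin array 4 (adjusted p = 0.0514, limma) or without saline arrays 1 and 4 (adjusted p = 0.0526). Nor did it pass with slide as a block (adjusted p = 0.0783) or replicate number as a block (adjusted p = 0.11). Its channel partner Kcnj16 gave -0.81 ± 0.34 (adjusted p = 0.212), and Kcnj10, named here after its values were seen, gave -2.46 ± 0.52 (adjusted p = 0.0612) and was well above background on 2 of 4 colistin arrays.

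The gene that rose was Kcnk5. It encodes the pH-sensitive potassium channel TASK-2, which takes part in bicarbonate reabsorption in the mouse, and had log2 levels of 2.17, 3.07, 3.15 and 3.10 on saline arrays 1 to 4 against 5.48, 5.06, 4.22 and 4.67 on colistin arrays 1 to 4. Every colistin array exceeded every saline array, and the fold change was 1.98 ± 0.39 (adjusted p = 0.0469, limma). This lay close to the threshold, and leaving out any single array raised the adjusted p to between 0.0666 and 0.122. The adjusted p was 0.149 with slide as a block, 0.178 with replicate number as a block and 0.136 without saline arrays 1 and 4. With median centring it was 0.0764, and with no filter on dim probes 0.0534.

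Car13, a cytosolic carbonic anhydrase, had log2 levels of -4.61, -4.55, -4.87 and -4.97 on saline arrays 1 to 4 and 0.51, -2.44, -1.61 and 0.11 on colistin arrays 1 to 4. The probe cleared background on only 2 of the 4 saline arrays and entered the test through the colistin arrays, so its fold change of 3.89 ± 0.65 (adjusted p = 0.0268, limma) is given as a value and not read as a rise. Its other probe gave 2.19 ± 1.05 (adjusted p = 0.233, limma over all kept probes), with colistin arrays 2 and 4 within or next to the saline values. With probes above background on all 8 arrays required, that same other probe stood for Car13, with an adjusted p of 0.21. Without a single array the adjusted p ranged from 0.0202 to 0.0797, and it was 0.0897 with slide as a block and 0.12 without saline arrays 1 and 4. With replicate number as a block it was 0.109, and with the probes averaged 0.0683. With normexp background correction the fold change was 1.77 ± 0.45 (adjusted p = 0.0715, limma).

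**Figure D4:**
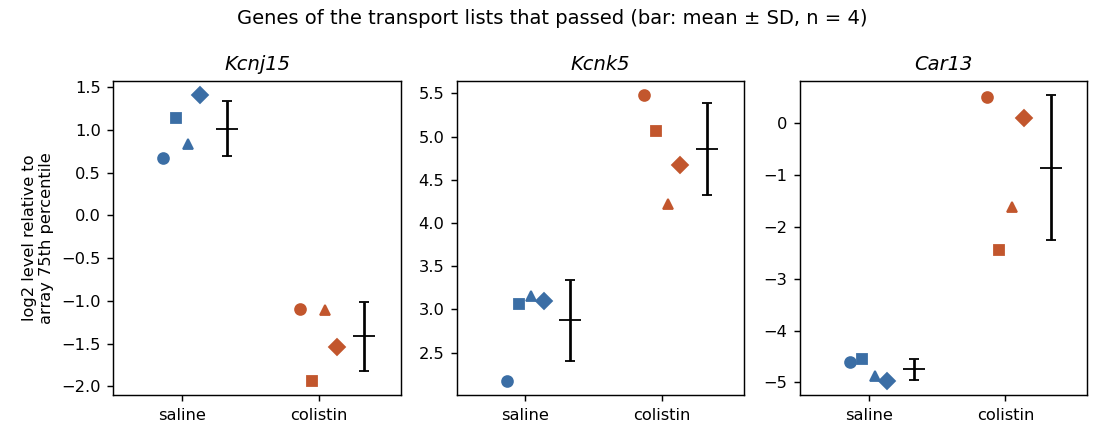
Log2 level relative to the array's 75th percentile of Kcnj15, Kcnk5 and Car13 on each array, with the mean and SD of 4 arrays per group; circles, squares, triangles and diamonds are arrays 1, 2, 3 and 4 of a group. Kcnj15 is lower and Kcnk5 and Car13 are higher on every colistin array than on any saline array, and the y axes differ between panels.

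Among the 9 other carbonic anhydrases that were above background on 3 or more arrays of both groups 0 passed and 8 were negative, with a median of -0.52. Car14, a membrane-spanning enzyme of the proximal tubule, gave -0.52 ± 0.29 (adjusted p = 0.309), and Car6, a secreted enzyme, gave 0.31 ± 0.62 (adjusted p = 0.779). Of 9 other pump and FXYD genes 0 passed and 8 were negative, with a median of -0.54; Atp1b3, another beta subunit, gave -0.23 ± 0.33. Of 7 genes of sodium-proton exchange and its scaffold 0 passed, with a median of -0.24. The scaffold gene Nherf1, whose protein tethers the exchanger, gave -0.24 ± 0.30 (adjusted p = 0.649) and its membrane linker gene Ezr, which encodes ezrin, 0.27 ± 0.38 (adjusted p = 0.685).

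Of 8 bicarbonate and anion carriers 0 passed, 4 were positive and 4 negative. Slc4a2, a chloride-bicarbonate exchanger, was higher on every colistin array and gave 1.67 ± 0.44 (adjusted p = 0.0994), with 1.63 ± 0.35 at its other probe. The sulfate and anion carrier gene Slc26a1 gave 0.12 ± 0.40 (adjusted p = 0.871). Of the 8 genes for the proton pump and potassium channels 1 rose and 1 fell, with a median of -0.89, and the pump subunit gene Atp6v1e1 gave -0.97 ± 0.50. Of 6 receptors and regulators 0 passed and 5 were negative. Hnf4a, a nuclear receptor that maintains proximal tubule identity, was lower on every colistin array and gave -1.58 ± 0.38 (adjusted p = 0.0832, limma). Of the 19 alternatives it passed only with normexp (adjusted p = 0.028). Its adjusted p was 0.172 with slide as a block and 0.225 with the replicate block. Ahcyl1, whose protein (IRBIT) binds and activates forms of the bicarbonate cotransporter, gave -0.47 ± 0.32 (adjusted p = 0.395). Its other probe had the opposite sign, at 0.52 ± 0.47 (adjusted p = 0.509, limma over all kept probes).

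The genes most like each member were those with the smallest root mean square difference over the 8 arrays once each gene was centred on its own mean, on the log2 scale. For Slc9a3 the closest was Dpys, at 0.33, where Slc9a3 itself spanned 2.94 log2 units. For Atp1b1 they were Or10a49 and Dcxr at 0.17 and 0.17, for Slc4a4 Kcnq5 at 0.11 and Or6c33 at 0.15, and for Fxyd2 Atp5f1e at 0.11 and Lamtor2 at 0.11. For Car2 they were Cd63 at 0.18 and Arpc2 at 0.19, and for Car4 Man1a1 at 0.09 and Atraid at 0.18. All of these share the arrays and their scaling with the member, and none passed the test between groups. Among the 6 genes the closest pair was Slc4a4 and Car4 at 0.37, followed by Atp1b1 and Fxyd2 at 0.41, and the farthest was Slc9a3 and Car2 at 1.21. This distance grows with a gene's own spread, and the members other than Slc9a3 spanned only 0.93 (Fxyd2) to 1.37 (Atp1b1) log2 units. A small distance between genes that vary little is therefore not read as a shared pattern.

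Marker genes of nephron segments, of the endothelium and of red cells were read on the same arrays. Among all genes tested, 0.549% fell and 1.47% rose past the test. Of 8 proximal tubule markers, all tested, 2 fell (Aqp1 and Slc22a6) and 0 rose, and 5 were negative and 3 positive, with a median log2 fold change of -0.77. The positive values, none past the test, were 1.25 ± 0.84 for Cubn, 1.14 ± 0.47 for Slc5a2 and 1.63 ± 0.68 for Slc7a7. The summed scaled signal of the 8 markers was 48628 to 80376 on saline and 17919 to 30780 on colistin arrays. The summed signal of the 6 transport genes, most of it from Atp1b1, was 27168 to 34912 on saline and 16247 to 23714 on colistin arrays. Of 6 thick ascending limb markers 1 fell, with a summed signal of 3382 to 7346 on saline and 204 to 807 on colistin arrays. The thick ascending limb also makes Slc9a3 and Car4, and intercalated cells and red cells also make Car2. Of 6 intercalated cell markers 1 fell, with 2224 to 3206 on saline and 48.2 to 990 on colistin arrays, and of 5 erythrocyte markers 2 fell, with 5908 to 8731 against 832 to 1724. Of 6 endothelial markers 4 fell, with 3316 to 5246 against 479 to 719. Of the 5 principal cell markers tested of 6 none passed, with 2238 to 3835 against 131 to 1334. Of these, 4 were negative and 1 positive (Scnn1b, 0.49 ± 0.84, well above background on 2 of 4 saline arrays). Of the 4 distal convoluted and connecting tubule markers tested of 6 none passed and 4 were negative, with 1814 to 3408 against 241 to 1578. Each sum is carried mostly by the brightest genes of its list. In these 2 lists they were Aqp2 and Slc12a3, with mean log2 levels of 4.50 and 4.24 on saline arrays. For the thick ascending limb, intercalated, principal and distal convoluted lists the lowest sum was that of colistin array 1, and without it the colistin sums began at 529, 265, 702 and 803. No marker tested was at background on every array. The part of these cell types in the values of the 6 genes was not tested, and in whole kidney RNA fewer cells of a type and less RNA per cell cannot be told apart.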

How the data were processed

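Kidney RNA from 4 saline and 4 colistin samples was hybridised to 1-colour Agilent arrays. The deposited scanner files hold processed signal as an intensity, background-corrected and detrended within each array but not scaled between arrays, per the file headers, where the submitters' processing notes name Agilent Feature Extraction 10.5. The deposited table of log2 values, used as an alternative, has a scale and centring that no header states; set against the scanner values, each column was shifted by about the array's 75th percentile plus a constant and each probe was centred. The median of its saline columns 1 to 4 was 0.23, 0.02, 0.09 and 0.20, and that of its colistin columns 1 to 4 was -0.11, -0.23, -0.09 and -0.03.

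Outlier-flagged spots (257 to 461 of 42877 per array) were left out, and no spot was saturated. Log2 signals were averaged per probe and the array's 75th percentile was subtracted. Probes that cleared background on 3 or more of the 4 arrays in either group were kept (23665 of 30367). Accessions were matched to RefSeq GRCr8 for names only, which named 18643 probes, and the brightest kept probe stood for each gene. Groups were compared with limma 3.58.1 under R 4.3.3, two-sided, with Benjamini-Hochberg adjustment over 12378 genes. Code was tested on simulated data. The files hold no mean spot signal, so normexp used the median spot signal, with an offset of 50.

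The members and gene lists were chosen with earlier results of these data known. Named genes were the 6 members, the list genes that passed, the 2 brightest others of each list and the 2 genes most like each member, with placeholder symbols passed over; some items the rule took are not reported here. Alternatives were other normalizations, background correction, probe filters and probe averaging, slide or replicate number as a block, array weights, the deposited table, and leaving out arrays.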

Additional observations from a re-analysis of the deposited data

Results flagged for a closer look

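Of 42 groups of 4 arrays examined, for the 6 members and 15 other transport genes, 3 held an array whose gap to its nearest neighbour was over 0.829 of the group's range, and chance gives about 1 in 20. None was a member. Kcnk5 had a log2 level of 2.17 on saline array 1, where the nearest saline array was at 3.07. Ezr was at 4.22 on saline array 4, where the nearest was at 3.005. Ahcyl1 was at 2.05 on saline array 1, where the nearest was at 2.82.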

How the results depend on the processing

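None of the 6 members passed under any of the 19 alternatives, where the smallest adjusted p was 0.115 (limma), and Slc9a3, Slc4a4, Atp1b1, Fxyd2 (negative) and Car2 (positive) kept their sign in all 19. Slc9a3 ranged from -1.66 to -0.92, Atp1b1 from -1.07 to -0.43, Slc4a4 from -0.61 to -0.21, Fxyd2 from -0.45 to -0.02 and Car2 from 0.26 to 0.66. Car4 turned to -0.12 with slide as a block, to -0.28 without saline arrays 1 and 4, and ranged from -0.14 to 0.22 with 1 array left out. Over all genes 250 passed (182 higher, 68 lower), 570 with normexp (347 higher, 223 lower), 40 with slide as a block, 5 with the replicate block, 141 without saline arrays 1 and 4, and 78 to 254 with 1 array left out. Of the 49 other transport genes 3 passed (2 higher, 1 lower), 2 of them above background on 3 or more arrays of both groups, a count added after the data were seen. The count was 4 with normexp and 4 with array weights (each 1 higher, 3 lower), 3 without saline array 4 (0 higher, 3 lower), 0 with slide as a block, 0 with the replicate block, 0 without saline arrays 1 and 4 and 0 to 3 with 1 array left out. Among them Slc26a1 turned to -0.21 without saline arrays 1 and 4 and -0.069 with array weights, ranging from -0.19 to 0.32 with 1 array left out, Ahcyl1 turned to 0.026 with probes averaged, and Car6 ranged from -0.11 to 0.79 with 1 array left out. The cause was not tested. The labels share replicate numbers between groups and do not say that same-numbered samples are paired. Deviations of same-numbered arrays from their group means correlated at -0.02 to 0.01, which shows no sign of pairing but cannot exclude it. None of the pairs compared within arrays passed under its alternatives; with 3 arrays against 4 the exact test cannot go below 0.0286.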
